A study of Mus musculus with 4 samples.

Results

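The 10 genes described here encode AP-1 proteins and other immediate early factors, which cells switch on within minutes of growth factor or stress signals. They were *Fos*, *Fosb*, *Fosl1*, *Fosl2*, *Jun*, *Junb*, *Jund*, *Atf3*, *Egr1* and *Ier3*. A probe set belonged to the group when the array annotation gave it exactly 1 gene symbol and that symbol was one of these. They held 14 of the 34958 singly named probe sets and were 10 of 18194 genes, and all 10 were measured. They were chosen by name around AP-1, which is known to act beside the ETS protein Ets2 at the promoters of extracellular proteases. *Egr1* and *Ier3* encode immediate early factors that are not AP-1 proteins. No value set the membership, though the group was chosen with earlier results of these data known.

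Gene expression was measured in fibroblasts cultured from mouse mammary glands, on 4 Affymetrix arrays, with 1 array per genotype. All mice were FVB/N females aged 16 weeks, and all carried 1 conventional knockout allele of *Ets2* (db, for its DNA-binding domain) opposite 1 floxed allele, so the cells called Ets2 present had 1 working copy. The Ets2db/loxP cells were the normal fibroblasts with *Ets2*, and the FspCre;Ets2db/loxP cells were the normal *Ets2* null fibroblasts. The ErbB2;Ets2db/loxP cells and the ErbB2;Fsp-cre;Ets2db/loxP cells were the *ErbB2* fibroblasts with *Ets2* and without it. Cre was driven by the promoter of the fibroblast specific protein gene, so only cells that had used that promoter were deleted. The *ErbB2* oncogene was driven by the MMTV promoter in the mammary epithelium and not in the fibroblasts themselves, and glands were taken before tumors could be felt. The cells were grown in medium with 10% serum and used at passage 2. The sources used here do not say whether cells of several mice were pooled. The comparisons address how loss of *Ets2* and the oncogene each relate to gene expression in these fibroblasts. No array had a replicate, so no test was possible and every difference below compares single arrays.

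AP-1 is a dimer of a JUN protein with a FOS, JUN or ATF protein, each of which holds DNA through a basic region and its partner through a leucine zipper. ERK signaling activates ETS-type cofactors of SRF at the promoters of *Fos* and *Egr1*, and JNK signaling activates JUN. In fibroblasts AP-1 is best known as the factor through which serum, growth factors and cytokines switch on secreted proteases, often from promoters that hold an ETS site near the AP-1 site.

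Among the members, *Fos*, *Atf3* and *Ier3* carry the results, and *Jun*, set beside them, passed 2-fold in no comparison. Proteases are the targets to which AP-1 is most often tied. The sequences below are the 120 bases just before the RefSeq transcription start of these 4 member genes and of 3 protease genes. They come from RefSeq on GRCm38.p6, at chr12:85473770-85473889 on the plus strand for *Fos*, chr1:191183334-191183453 on the minus strand for *Atf3*, chr17:35821593-35821712 on the plus strand for *Ier3* and chr4:95052223-95052342 on the minus strand for *Jun*. The protease windows were chr9:7445702-7445821 for *Mmp3*, chr9:7347254-7347373 for *Mmp12* and chr9:7272394-7272513 for *Mmp13*, all on the plus strand. Capitals mark matches on either strand to TGANTCA (the AP-1 motif), TGACGT (the core of the cAMP response element), TGACATCA (the related element known from the *Jun* promoter) or AGGAAG (an ETS motif).
Fos: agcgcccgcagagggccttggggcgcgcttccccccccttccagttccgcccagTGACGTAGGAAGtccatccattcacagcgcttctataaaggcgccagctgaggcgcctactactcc
Atf3: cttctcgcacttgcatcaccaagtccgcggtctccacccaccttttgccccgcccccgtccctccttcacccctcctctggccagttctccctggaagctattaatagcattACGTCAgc
Ier3: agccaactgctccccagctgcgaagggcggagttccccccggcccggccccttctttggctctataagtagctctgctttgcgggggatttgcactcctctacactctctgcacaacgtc
Jun: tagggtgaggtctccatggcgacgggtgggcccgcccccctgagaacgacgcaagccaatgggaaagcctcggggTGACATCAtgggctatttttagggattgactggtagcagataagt
Mmp3: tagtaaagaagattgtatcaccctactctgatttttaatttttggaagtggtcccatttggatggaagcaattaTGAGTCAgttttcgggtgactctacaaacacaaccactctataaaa
Mmp12: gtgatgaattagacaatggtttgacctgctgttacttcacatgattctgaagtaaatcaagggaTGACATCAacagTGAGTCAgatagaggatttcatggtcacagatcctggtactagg
Mmp13: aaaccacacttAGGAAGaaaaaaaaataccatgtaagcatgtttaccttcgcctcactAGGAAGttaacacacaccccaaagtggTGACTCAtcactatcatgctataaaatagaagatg

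The *Fos* window held TGACGT starting 66 bases before the start, followed with no base between by AGGAAG at 60. The *Atf3* window held the cAMP response core on the reverse strand, 8 bases before the start. The *Jun* window held TGACATCA 45 bases before the start, and no motif fell in the *Ier3* window shown, whose only match, an AGGAAG, lay farther out at 149. The AP-1 motif itself lay 46 bases before the start in *Mmp3*, 35 in *Mmp13* and 44 in *Mmp12*, where a TGACATCA lay at 56. *Mmp12* has 2 listed starts, and the window of the other one held no AP-1 motif. In the 250 bases before the start, TGANTCA matched 0 of the 8 members that had a promoter sequence and 7 of the 14 protease and other target genes that had one. A gene counted if any of its listed starts had a match, while the shares that follow are per window. The targets were listed as textbook AP-1 and ETS targets, so their AP-1 motifs are no separate result. Among all 32851 promoter windows of that length, 6.75% held TGANTCA, 6.47% TGACGT, 2.93% TGACATCA and 29.5% AGGAAG. Of the 8 members, 2 held TGACGT (*Fos* and *Atf3*), 1 held TGACATCA (*Jun*) and 3 held AGGAAG (*Fos*, *Junb* and *Ier3*). The SRF-binding CArG box, found in 1.47% of all windows, matched none. Bases farther out than 250 were not searched, so this does not show that any of these promoters lacks the box. A match is a run of letters and not a shown binding site. *Fosl1* and *Egr1* were the members without an entry.

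Array medians lay between 5.51 and 5.54 on the log2 scale, and 42.5% to 42.8% of probe sets reached log2 6, below which a probe set was not taken as shown above background. The *Ets2* probe sets did not separate the genotypes: the brightest read 8.14 and 8.35 in normal cells with and without *Ets2*, and 8.34 and 8.31 in *ErbB2* cells. Since no source used here places these probes within or outside the deleted part, they do not check the labels. All 12 fibroblast markers reached log2 6 on 3 arrays and 11 did in normal *Ets2* null fibroblasts, where *Fap* read 5.85. *Col1a2* lay between 14.29 and 14.61 and the summed level of the 12 between 16.40 and 16.67, and 9 of 12 were lower without *Ets2* in normal fibroblasts, with a median of -0.44. Markers of other cells were also present and differed between the arrays, as set out beside the results they move with.

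**Figure D1:**
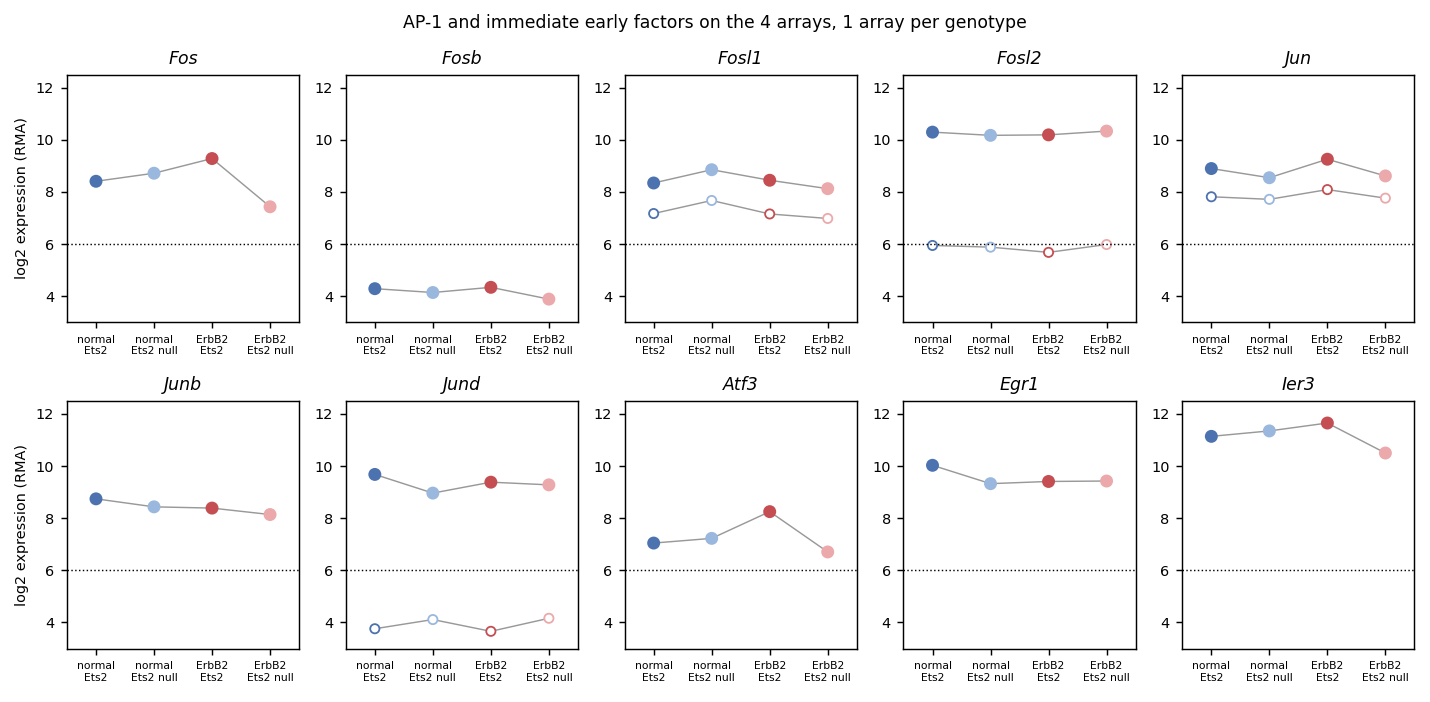
Log2 expression (RMA) of the 10 genes on the 4 arrays, 1 point per array. Filled points are the brightest probe set of a gene, open points its other probe set, and the dotted line is log2 6. *Fos*, *Atf3* and *Ier3* are highest in *ErbB2* fibroblasts with *Ets2* and lowest in *ErbB2* fibroblasts without it, while *Fosb* lies below the dotted line on all 4 arrays.

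In *ErbB2* fibroblasts, 3 of the 10 genes were over 2-fold lower without *Ets2*, namely *Fos*, *Atf3* and *Ier3*, and none was over 2-fold higher. A difference of over 2-fold in that direction was found in 1.74% of all genes, and in 2.75% of the 10739 genes with a value of log2 6 or more on either array. In normal fibroblasts, loss of *Ets2* went with a difference of over 2-fold in 0 of the 10 genes, against 0.978% of all genes in either direction. The median difference of the 10 genes was -0.39 in *ErbB2* and -0.14 in normal fibroblasts, with all-gene medians of 0.04 and -0.00. No member passed 4-fold, the size the study used for these arrays, in either comparison, against 0.357% and 0.104% of all genes. These 2 comparisons share no array. In such cultures, fewer cells of a type and less RNA per cell cannot be told apart.

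How far probe sets of the same gene agree was read from the 4021 genes with at least 2 probe sets at log2 6 or more on every array. Their probe sets disagreed on the *Ets2* difference by a median of 0.152 in *ErbB2* and 0.130 in normal fibroblasts, and 95% of genes disagreed by less than 0.509 and 0.448. These figures cover only how probe sets of a gene differ on the same pair of arrays. Errors that a whole array shares, from labelling or hybridisation, are not in them, since no RNA was hybridised again. The spread between cultures or mice was not measured either, so a difference above these figures is not thereby shown to recur. Member differences below these figures are given as values, with no direction read from them.

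*Fos* encodes c-Fos, the AP-1 subunit that cannot dimerise with itself and depends on a JUN partner. Its only probe set read 8.41 in normal fibroblasts with *Ets2*, 8.72 in normal *Ets2* null fibroblasts, 9.28 in *ErbB2* fibroblasts with *Ets2* and 7.43 in *ErbB2* *Ets2* null fibroblasts, as log2 levels. The *ErbB2* pair thus held both the highest and the lowest array, with the normal arrays between them. *Fos* was 3.60-fold lower without *Ets2* in *ErbB2* fibroblasts, a log2 difference of -1.85, and only 75 of 18194 genes had a lower difference. In normal fibroblasts the difference was 0.31, which lies within the disagreement of probe sets. The difference between the *Ets2* differences was -2.16, the only one of the 10 genes past 4-fold, a size that 0.753% of all genes passed.

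*Fosb*, the closest relative of *Fos* and likewise an immediate early gene, read 4.29, 4.14, 4.34 and 3.89 on the same arrays in the same order. All values lay below log2 6, so neither a level nor a fold is given for it.

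*Fosl1* encodes FRA1, a more stable FOS protein that accumulates under lasting ERK signaling. Its brighter probe set read 8.34, 8.85, 8.45 and 8.12, and the second read 7.17, 7.67, 7.15 and 6.98. On both probe sets the highest array was that of normal *Ets2* null fibroblasts and the lowest that of *ErbB2* *Ets2* null fibroblasts, an order that *Fos* did not share. Loss of *Ets2* went with 0.51 and 0.50 in normal fibroblasts, and with -0.32 and -0.17 in *ErbB2* fibroblasts.

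*Fosl2*, which encodes FRA2, was the most even of the group. Its brighter probe set read 10.29, 10.17, 10.19 and 10.33, a span of 0.16, and the dimmer one lay between 5.68 and 5.98. Among the 4 FOS genes, only *Fos* was over 2-fold lower without *Ets2* in *ErbB2* fibroblasts, and *Fosb* was too dim to compare.

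*Jun* encodes c-Jun, the subunit that can form AP-1 both with itself and with FOS proteins. Its probe sets read 8.89, 8.54, 9.25 and 8.61, and 7.81, 7.71, 8.09 and 7.76. *ErbB2* fibroblasts with *Ets2* were the highest array on both. Loss of *Ets2* in *ErbB2* fibroblasts went with -0.64 on the brighter probe set and -0.33 on the other, below 2-fold. In normal fibroblasts the values were -0.35 and -0.10.

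*Junb*, a weaker activator that can oppose c-Jun, read 8.74, 8.43, 8.39 and 8.14. Its *Ets2* differences were -0.31 in normal and -0.25 in *ErbB2* fibroblasts, nearly equal in the 2 settings. No other member had so small a difference between its *Ets2* differences (0.06).

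*Jund*, the JUN gene that resting cells express steadily, read 9.68, 8.96, 9.38 and 9.28 on its brighter probe set. Its lowest array was normal *Ets2* null fibroblasts, with -0.72 against normal cells with *Ets2*, the largest difference of the 10 genes in that comparison, and 193 of all genes had a lower one. In *ErbB2* fibroblasts the *Ets2* difference was -0.10, and it was 0.01 when the arrays were quantile normalized again. The second *Jund* probe set read 3.76, 4.11, 3.66 and 4.16, below log2 6 throughout, so no direction is read from it.

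*Atf3*, a stress-induced ATF protein that pairs with JUN proteins, read 7.05, 7.23, 8.25 and 6.70. *ErbB2* fibroblasts with *Ets2* stood over 1 log2 unit above each other array. Without *Ets2* it was 2.92-fold lower in *ErbB2* fibroblasts, with a log2 difference of -1.55, and 126 of 18194 genes had a lower one. The normal arrays differed by 0.18. *Atf3* was also the only member that passed 2-fold between *ErbB2* and normal fibroblasts that have *Ets2*, at 2.31-fold higher.

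*Ier3* encodes a short-lived protein that acts on ERK signaling and on cell survival. It read 11.14, 11.35, 11.65 and 10.50. Again *ErbB2* fibroblasts with *Ets2* were highest and those without it lowest. It was 2.22-fold lower without *Ets2* in *ErbB2* fibroblasts, with a log2 difference of -1.15, and 235 genes had a lower one. In normal fibroblasts the difference was 0.21.

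*Egr1*, a zinc finger factor that like *Fos* is induced through SRF, did not share that pattern. It read 10.03, 9.32, 9.41 and 9.42. The normal fibroblasts with *Ets2* stood alone as the high array, and the other 3 differed by at most 0.10. Its *Ets2* difference was -0.70 in normal and 0.02 in *ErbB2* fibroblasts, and the latter changed sign to -0.02 when each array was centred on its median.

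**Figure D2:**
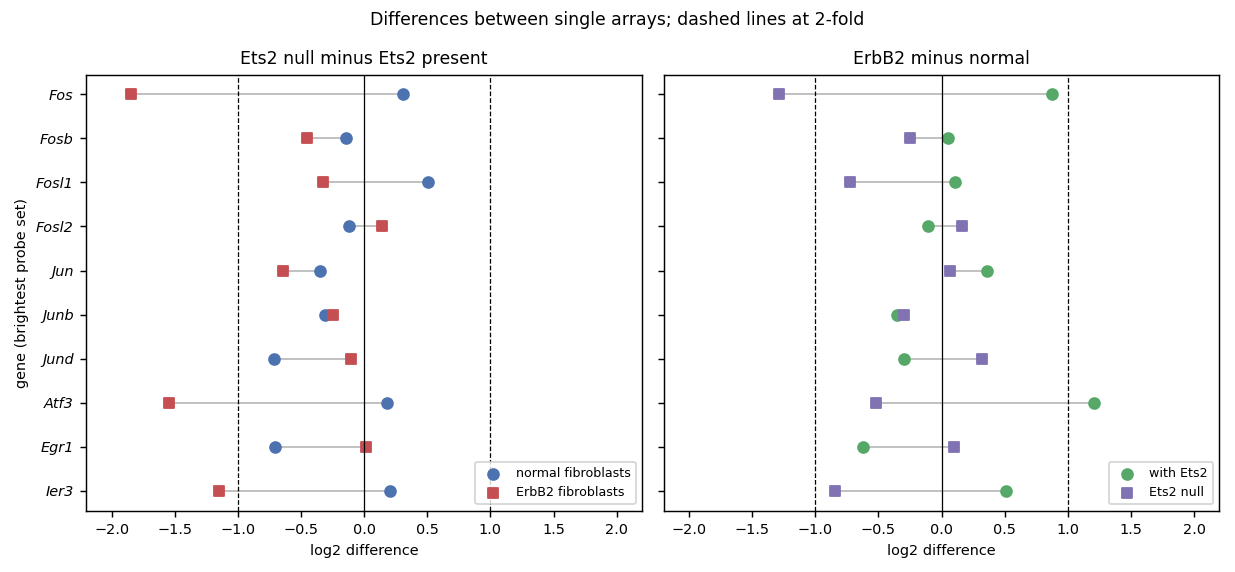
Log2 differences between single arrays for the brightest probe set of each gene, with *Ets2* null minus *Ets2* present on the left (circles normal, squares *ErbB2* fibroblasts) and *ErbB2* minus normal on the right (circles with *Ets2*, squares without). Dashed lines mark 2-fold. On the left, *Fos* (-1.85), *Atf3* (-1.55) and *Ier3* (-1.15) lie beyond the dashed line in *ErbB2* fibroblasts, and no gene does in normal fibroblasts.

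*Fos*, *Atf3* and *Ier3* placed the 4 arrays in one order, with *ErbB2* fibroblasts with *Ets2* highest, then normal *Ets2* null, then normal with *Ets2*, then *ErbB2* *Ets2* null fibroblasts. That order was found in 4.74% of all genes, and in 6.35% of the 10936 genes with a value of log2 6 or more. The step between the normal arrays was small in all 3 genes (0.31, 0.18 and 0.21), so their places in the order are not told apart by these data. None of the other 7 members had this order.

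Between *ErbB2* and normal fibroblasts that have *Ets2*, *Fos* differed by 0.87, *Atf3* by 1.20 and *Ier3* by 0.51. Only 1 of the 10 genes, *Atf3*, was over 2-fold higher, against 0.83% of all genes in that direction and 1% in either. *Egr1* differed by -0.62 in this comparison, and 190 genes had a lower value. Between *ErbB2* and normal fibroblasts that lack *Ets2*, 1 of the 10 genes, *Fos*, was over 2-fold lower at -1.29, against 1.51% of all genes lower and 2.06% in either direction. *Ier3* differed by -0.85, *Fosl1* by -0.73 and *Atf3* by -0.52. Each of these comparisons uses an array that the *Ets2* comparisons also use, so a single unusual array would enter both, and their values are given side by side only.

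The difference between the *Ets2* differences, *ErbB2* minus normal, was past 2-fold for 3 of 10 members, all lower, against 3.28% of all genes lower and 4.42% in either direction. They were *Fos*, *Atf3* (-1.73) and *Ier3* (-1.36). The remaining members lay between -0.83 for *Fosl1* and 0.72 for *Egr1*.

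Of 19 dimer partners and related bZIP factors analysed, 2 were over 2-fold lower without *Ets2* in *ErbB2* fibroblasts and 0 higher, beside 1.74% of all genes lower. Below 0 lay 13 of the 19, and their median difference was -0.10, beside 0.04 over all genes. *Maff*, a small MAF protein that lacks an activation domain, read 9.06, 9.74, 9.29 and 8.22, and differed by -1.06. *Creb5* differed by -1.27 on its brightest probe set, but it reached log2 6 on 1 array only (6.03), and its other 3 probe sets, all below log2 6, differed by -0.15 to -0.19. In normal fibroblasts 1 gene was over 2-fold lower without *Ets2*, *Ddit3*, beside 0.978% of all genes in either direction. The list median there was -0.12. *Batf* differed by 0.47 and *Maff* by 0.68 there.

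*Ddit3* encodes CHOP, the bZIP factor of the endoplasmic reticulum stress response. It read 10.14, 8.96, 9.80 and 10.67, and 8.06, 6.82, 7.50 and 8.55 on its second probe set. Here the *Ets2* null arrays held both extremes, the lowest in normal and the highest in *ErbB2* fibroblasts. Its *Ets2* difference was -1.19 in normal and 0.87 in *ErbB2* fibroblasts.

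Among 38 other immediate early genes, 7 were over 2-fold lower without *Ets2* in *ErbB2* fibroblasts and 0 higher, beside 1.74% of all genes lower. Below 0 lay 31 of 38, and the median was -0.55 beside 0.04 over all genes. In normal fibroblasts 0 of 38 passed 2-fold, beside 0.978% of all genes in either direction, and the median was 0.07. The 7 genes were *Phlda1* (-1.90), *Tnfaip3* (-1.33), *Dusp1* (-1.28), *Srf* (-1.28), *Ccn1* (-1.21), *Ier5* (-1.10) and *Maff*, of which *Ccn1* and *Ier5* were named after their values were seen. *Dusp1*, the phosphatase that switches off MAP kinases, read 10.46, 10.78, 11.08 and 9.79. *Phlda1* read 9.08, 9.59, 9.67 and 7.77. Both were lowest in *ErbB2* *Ets2* null fibroblasts. *Tnfaip3*, an inhibitor of NF-kappaB signaling, read 7.18, 7.78, 7.41 and 6.08, but its second probe set differed by only -0.51. The other probe sets of *Ier5* differed by -0.83 and -0.93 and the second of *Srf* by -0.70, all below 2-fold. With the mean of a gene's probe sets, 4 of the 38 passed 2-fold, so the count of 7 depends on the choice of probe set. *Ccn1*, a matricellular protein induced by serum, differed by -1.18 to -1.28 on all 4 of its probe sets. *Zfp36l1*, which speeds mRNA decay, had the largest difference in normal fibroblasts (-0.87) and 0.06 in *ErbB2* fibroblasts. The EGR relatives of *Egr1* were not among the 7, with -0.62 for *Egr2*, 0.16 for *Egr3* and -0.06 for *Egr4*, named here as relatives after their values were seen.

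**Figure D3:**
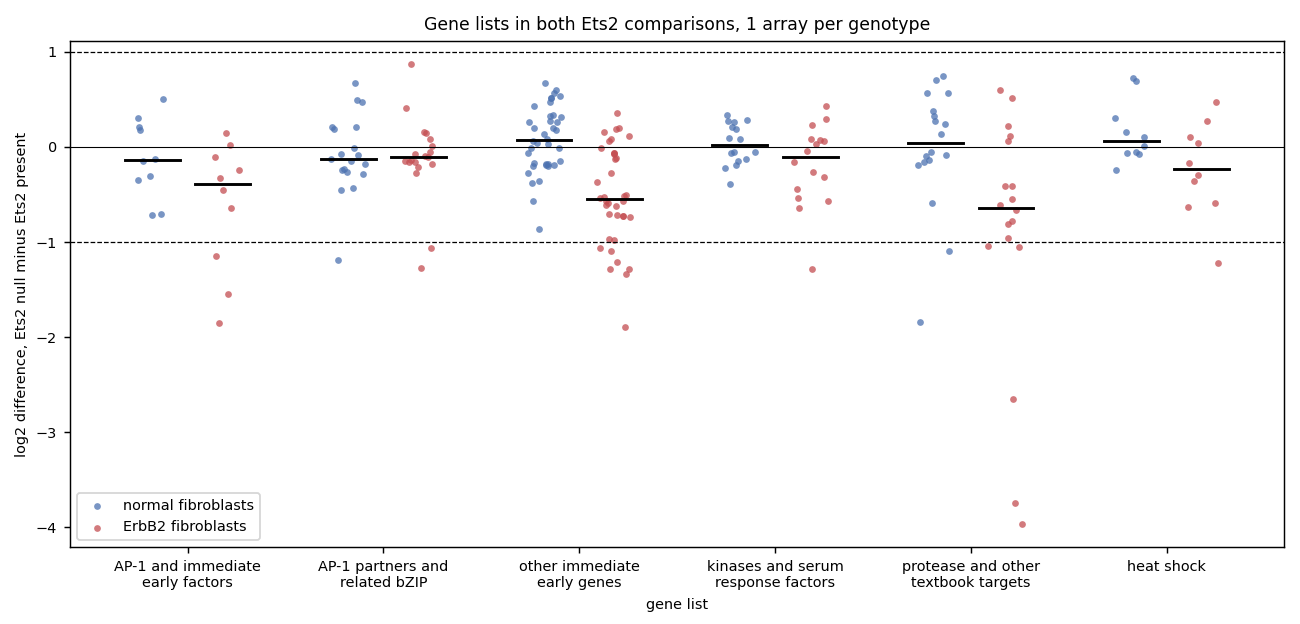
Log2 difference of each measured gene in 6 lists, as cells without *Ets2* minus cells with it (blue, normal fibroblasts; red, *ErbB2* fibroblasts), 1 point per gene with bars at the list median and dashed lines at 2-fold. Medians in *ErbB2* fibroblasts were -0.39 for the 10 AP-1 and immediate early factors, -0.55 for other immediate early genes, -0.64 for proteases and other targets, and -0.10 for bZIP partners and for kinases with serum response factors.

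Of 16 kinases and serum response factors that act upstream, 1 was over 2-fold lower without *Ets2* in *ErbB2* fibroblasts, *Srf*, beside 1.74% of all genes. The list median was -0.10, and 9 of the 16 lay below 0. *Srf*, the factor that holds the *Fos* and *Egr1* promoters, read 8.41, 8.67, 9.02 and 7.74. Its second probe set differed by -0.70, so the size of its difference depends on the probe set. *Mrtfa*, a coactivator of SRF, differed by -0.64 and *Mapk14*, the p38 alpha kinase, by -0.56. In normal fibroblasts none passed 2-fold, beside 0.978% of all genes in either direction. The largest values there were -0.39 for *Nab2*, a corepressor of EGR1, 0.33 for *Mrtfa* and 0.29 for the JNK kinase *Map2k4*.

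The textbook targets of AP-1 and ETS factors held the largest differences of the lists. In *ErbB2* fibroblasts 5 of 18 measured genes were over 2-fold lower without *Ets2* and 0 higher, beside 1.74% of all genes lower. Of the 5, 3 passed 4-fold, beside 0.357% of all genes in either direction, and the list median was -0.64. In the same comparison 14 of 14 macrophage and myeloid markers lay below 0, 8 of them past 2-fold, with a median of -1.19, and their part in the result was not tested. *Mmp3* (stromelysin-1) read 9.87, 8.02, 12.26 and 8.29, and *Mmp12* (macrophage elastase) read 10.46, 10.37, 11.61 and 7.87. *Mmp13* (collagenase-3) read 5.42, 5.56, 8.44 and 5.79, above log2 6 on 1 array only. These 3 genes, whose promoters with the AP-1 motif are printed above, were highest in *ErbB2* fibroblasts with *Ets2*. Their *Ets2* differences in *ErbB2* fibroblasts were -3.97, -3.74 and -2.65, which for *Mmp3* and *Mmp12* is 15.7-fold and 13.4-fold lower, and they were also the 3 target genes over 2-fold higher in *ErbB2* than in normal fibroblasts with *Ets2*. *Plaur*, the urokinase receptor, differed by -1.05 and *Mmp9* by -1.04, the latter at values near log2 6 and with -0.55 on its second probe set. *Mmp9* was named after its values were seen.

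In normal fibroblasts 2 of the 18 targets were over 2-fold lower without *Ets2*, beside 0.978% of all genes in either direction. They were *Mmp3* (-1.85) and *Tgfb1* (-1.10), the median of the 18 was 0.04, and *Plaur* differed by 0.75. The second *Tgfb1* probe set, below log2 6, differed by 0.09. *Mmp3* was thus lower without *Ets2* in both settings, whereas *Fos*, *Atf3* and *Ier3* were over 2-fold lower in *ErbB2* fibroblasts only, with their difference between settings given above as an untested value. Not every target with an AP-1 motif had such values. *Il6* differed by 0.28 in normal and 0.51 in *ErbB2* fibroblasts, and *Mmp1a* lay at or below 3.18 on every array. Both were picked for that motif after their values were seen.

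Heat shock genes, chaperones that stressed cells induce together with *Fos*, *Atf3* and *Egr1*, were set beside the members. In *ErbB2* fibroblasts 1 of 10 was over 2-fold lower without *Ets2*, *Hspa1b*, beside 1.74% of all genes lower. The list median was -0.23. *Hspa1b*, an inducible chaperone whose near-identical copy *Hspa1a* may share its probes, read 8.57, 9.29, 9.48 and 8.25, and its *Ets2* differences were 0.73 in normal and -1.22 in *ErbB2* fibroblasts. *Hspb1*, a small heat shock protein, differed by 0.69 and -0.64. *Hspe1* differed by -0.24 in normal and *Hsph1* by 0.47 in *ErbB2* fibroblasts. *Hspa1b* had the array order of *Fos*, and its part in the result was not tested.

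Markers of other cell types moved across the arrays as well. The summed level of 14 macrophage and myeloid markers was 13.37, 13.08, 14.29 and 12.94 on the log2 scale, so it was highest and lowest on the same arrays as *Fos*, *Atf3* and *Ier3*. Each of the 14 was lower without *Ets2* in *ErbB2* fibroblasts, and *Cd68* read 8.67, 8.70, 10.56 and 8.21. *Ptprc*, which defines leukocytes, read 5.56, 5.75, 6.91 and 5.58 and so passed log2 6 only on the array where these genes were highest. Luminal epithelial markers summed to 10.23, 11.47, 11.25 and 9.78, basal epithelial markers to 8.48, 9.94, 9.64 and 8.40, and skeletal muscle markers to 11.40, 12.15, 11.77 and 10.19. *Krt18* of luminal cells read 5.21, 8.78, 8.52 and 5.01. All 3 of these sums were lowest, like *Fos*, in *ErbB2* *Ets2* null fibroblasts and highest in normal *Ets2* null fibroblasts, but the muscle sum was highest there through *Acta1* (10.34, 11.89, 10.59 and 9.37). Marker by marker, 8 of 10 muscle and 8 of 14 myeloid markers were highest in *ErbB2* fibroblasts with *Ets2* and lowest in those without it, as *Fos*, *Atf3* and *Ier3* were, and so were 3 of 11 luminal and 1 of 8 basal markers and 9.93% of all genes. *Mylpf* of muscle read 7.61, 6.07, 8.34 and 5.30. Endothelial markers summed to 10.51, 10.05, 10.09 and 9.73 and adipocyte markers to 12.32, 12.93, 12.76 and 12.77, while the fibroblast sum was 16.67 and 16.64 on the *ErbB2* arrays with and without *Ets2*. *Elf5* of luminal cells, *Trp63* of basal cells and *Adipoq* of adipocytes lay below log2 6 on every array. *Epcam* of luminal cells entered its sum at 8.29, 7.98, 8.32 and 8.10, the values of its brightest probe set. On another probe set the paper lists *Epcam* as higher without *Ets2* in normal fibroblasts, so its place in the luminal list depends on the probe set. Immune, epithelial and muscle cells also express AP-1 and immediate early genes, and the part of these cells in the results on the members and on the gene lists was not tested.

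**Figure D4:**
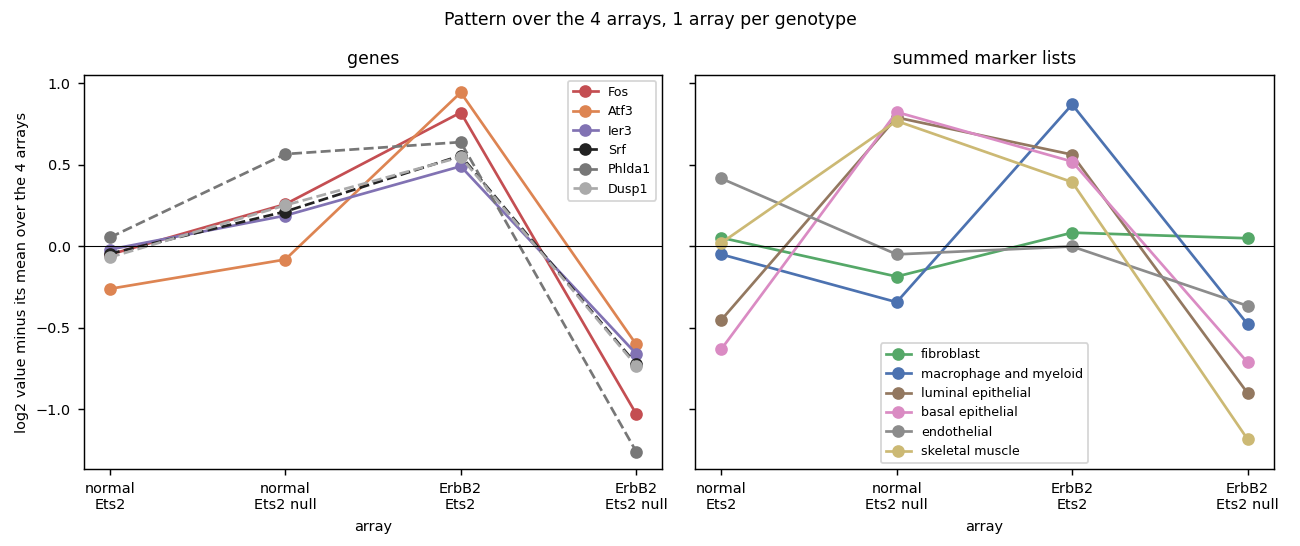
Log2 value on each array minus its mean over the 4 arrays, for 3 members with *Srf*, *Phlda1* and *Dusp1* (left) and for the summed level of 6 marker lists (right). The genes on the left peak in *ErbB2* fibroblasts with *Ets2* and are lowest in *ErbB2* *Ets2* null fibroblasts, and the myeloid sum has its highest and lowest values on those arrays too. The muscle sum peaks in normal *Ets2* null fibroblasts through *Acta1*, while 8 of 10 muscle markers peak with the genes on the left.

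The genes whose pattern lay nearest to each member were found by the distance between their profiles over the 4 arrays, each centred on its own mean, for the 3 members that spanned more than 1 log2 unit. Nearest to *Fos* were *Rnf128* (a ubiquitin ligase, distance 0.131), *Ripor2* (0.155) and *Ccl3* (a chemokine, 0.173), and *Ccl3* read 6.74, 7.10, 7.46 and 5.63. In *ErbB2* *Ets2* null fibroblasts *Ccl3* and *Ripor2* (5.18) thus lay below log2 6. Nearest to *Atf3* were *Slc7a8* (an amino acid transporter, 0.104), *Lat2* (0.108) and *Igsf6* (0.124). *Slc7a8* and *Igsf6* reached log2 6 on 1 array only, *ErbB2* fibroblasts with *Ets2* (6.28 and 6.06). Their likeness to *Atf3* thus rests on values mostly not shown above background. Nearest to *Ier3* were *S1pr1* (a sphingosine 1-phosphate receptor, 0.0830), *Cav2* (a caveolin, 0.0979) and *Srf* (0.0981). *S1pr1* read 5.67, below log2 6, in *ErbB2* *Ets2* null fibroblasts. With 4 points per profile and 1 array per genotype, these are descriptions of these arrays.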

How the data were processed

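Total RNA of 4 fibroblast cultures, 1 per genotype, was hybridised to Affymetrix mouse genome arrays. The authors deposited log2 values made with RMA, which corrects background, quantile normalizes and summarises probes, so changes that most genes share are hidden. The sources used here give no software version or scan date.

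Of 45101 probe sets, 34958 had 1 symbol in the platform annotation of 2016, 932 several and 9211 none, and only the first kind was named. Of these, 34754 matched the GRCm38.p6 RefSeq table by Entrez ID and 0 symbols changed. A gene took the value of its brightest probe set, by the mean of all arrays. Python 3.11.15 was used (pandas 2.3.3, numpy 2.4.6, statsmodels 0.14.6 and matplotlib 3.10.9). In place of a test, differences over 2-fold (log2 1) and 4-fold (log2 2) were counted beside the share of all genes past the same size. A fold is given where both values reach log2 6. The number of arrays, 1 per genotype, limits the precision.

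The members, gene lists, marker lists and motifs were chosen with earlier results of these data known. Genes named from a list were those past 4-fold in an *Ets2* comparison and the 3 with the largest difference in each, among those with a value of log2 6 or more. Exceptions are stated. Lists overlapped by *Maff* and *Srf*. The steps were tested on simulated data. Alternatives were 4-fold and 1.5-fold sizes, median centring, quantile normalization, loess (span 0.4), a floor at log2 6, leaving out probe sets named _x_at or _s_at, the mean of a gene's probe sets, and the probe set with the largest difference.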

Additional observations from a re-analysis of the deposited data

Results flagged for a closer look

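For 6 of the 10 genes the *Ets2* difference had opposite signs in normal and *ErbB2* fibroblasts. The share of all genes with opposite signs was not counted, so this count is not read as a result about these genes. The difference between the *Ets2* differences was -2.16 for *Fos*, -1.73 for *Atf3*, -1.36 for *Ier3*, -0.83 for *Fosl1*, 0.72 for *Egr1* and 0.27 for *Fosl2*. With 1 array per genotype, none of these differences was tested. In 95% of genes, probe sets disagreed by less than 0.448 in normal and 0.509 in *ErbB2* fibroblasts. Below that size lay the values of *Fos* (0.31), *Atf3* (0.18) and *Ier3* (0.21) in normal fibroblasts, those of *Fosl1* (-0.32) and *Egr1* (0.02) in *ErbB2* fibroblasts, and both values of *Fosl2* (-0.12 and 0.14), so for none of the 6 genes do both signs exceed it. On its second probe set *Fosl1* differed by 0.50 in normal and -0.17 in *ErbB2* fibroblasts, the latter again below that size. The sign of *Egr1* in *ErbB2* fibroblasts turned with median centring.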

How the results depend on the processing

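The counts of members past 2-fold were the same under median centring, repeated quantile normalization, loess, the floor at log2 6, the removal of probe sets named _x_at or _s_at, and both other choices of probe set. Only median centring, quantile normalization and loess could change the values of *Fos*, *Atf3* and *Ier3*. Each has 1 probe set, not named _x_at or _s_at, and the floor changes no value. The counts moved with the size chosen. At 4-fold, 0 members passed in each of the 4 comparisons and 1 in the difference between the *Ets2* differences. At 1.5-fold, 2 passed for *Ets2* in normal fibroblasts, 4 for *Ets2* in *ErbB2* fibroblasts, 3 in each comparison of *ErbB2* with normal fibroblasts and 6 in the difference between the *Ets2* differences. The share of all genes past 1.5-fold was not counted. The 1.5-fold counts of members and lists therefore show only how counts change with the size, and not whether they exceed those of other genes. Of 345 values of single members under an alternative, 342 moved by less than the robust SD of that difference over all genes. Many of these could not move under the floor, the removal of probe sets or, for members with 1 probe set, the choice between them. The other 3, all of *Jund*, moved by more. Its *Ets2* difference in normal fibroblasts was -0.18 with the mean of its probe sets. In *ErbB2* fibroblasts it was 0.20 with that mean and 0.50 with the probe set of largest difference. For the lists in *ErbB2* fibroblasts, 4-fold left 3 protease and other targets and 0 genes of each other list, and 1.5-fold gave 11 targets, 17 other immediate early genes, 3 heat shock genes and 2 kinases or serum response factors. In normal fibroblasts, 4-fold left 0 targets and 0 bZIP factors, and 1.5-fold gave 5 targets, 3 other immediate early genes, 2 bZIP factors and 2 heat shock genes. With the mean of a gene's probe sets, 4 other immediate early genes, 1 bZIP factor and 0 kinases or serum response factors passed 2-fold in *ErbB2* fibroblasts, and 1 target in normal fibroblasts. Quantile normalization left 1 bZIP factor in *ErbB2* fibroblasts. The probe set of largest difference gave 8 targets in *ErbB2* fibroblasts and 2 bZIP factors in normal fibroblasts. The removal of probe sets named _x_at or _s_at left 0 kinases or serum response factors in *ErbB2* fibroblasts. The removed kinase-list gene was *Srf*, whose brighter probe set is named _s_at. No paired analysis was possible because each genotype has 1 array and the labels give no replicate numbers. No array could be left out for the same reason, and the spread between cultures, which would decide whether any of these differences recurs, was not measured.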
